A study of Mus musculus with 6 samples.

Results

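The Notch receptors Notch1, Notch2, Notch3 and Notch4, the ligands Jag1 and Dll4, and the transcriptional targets Hey1, Hey2, Heyl and Hes1 were examined in single-cell RNA sequencing of the mouse aortic root and ascending aorta. These 10 genes were chosen by symbol from the 31055 features of the deposited matrix, and each symbol matched a single feature. The study set mice with Loeys-Dietz syndrome (LDS), a connective tissue disorder with aortic aneurysm, beside control mice at 16 weeks of age on a 129 background. Its labels list 4 control samples (Tgfbr1+/+) and 2 LDS samples (Tgfbr1M318R/+, a heterozygous missense allele of a TGF-β receptor). Of the control samples, 2 also carry an EGFP-L10a tracer allele and a Cre recombinase meant to mark cells of cardiac neural crest origin. The study's methods name the Wnt2 promoter as the driver of this Cre. Tissue was digested with enzymes for 30 min or 1 h, and intact, living cells were sorted before capture. Cell barcodes end in a number, 1 to 6, that sets 6 libraries apart, but nothing in the sources used here pairs a number with a mouse. No library was therefore given a genotype, LDS and control cells were not compared, and no p-values were computed. Each value below is that of a library, or a median with the lowest and highest library in parentheses, and directions are counted over libraries.

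Notch receptors are single-pass membrane proteins that are cut when a ligand of the Jagged or Delta-like family on a neighboring cell binds them. The released intracellular domain joins the DNA-binding protein RBPJ and a Mastermind coactivator in the nucleus and switches on genes of the Hes and Hey families, which code for transcriptional repressors. In arteries, NOTCH3 is best known as the receptor of mural cells, and DLL4, JAG1, NOTCH1 and NOTCH4 as the ligands and receptors of endothelium. JAG1 from endothelium and smooth muscle takes part in the differentiation of vascular smooth muscle cells (VSMCs), and HEY2 marks arterial fate in the embryo.

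The filter of the study's methods (between 1000 and 5000 genes, between 1500 and 25000 unique molecular identifiers, UMIs, and a mitochondrial share under 20%) kept 24972 of 30716 barcodes. A UMI marks 1 captured transcript, and the kept cells held between 18218282 and 38105145 UMIs per library. Cells were clustered with the Notch genes left out of the variable features. By fixed marker lists, 10253 cells were VSMC-like, 13602 fibroblast-like, 568 endothelial-like and 444 leukocyte-like, and 105 cells with T cell transcripts stayed unnamed. All 8 endothelial markers summed to a median of 4903 UMIs per 1000000 (CPM) in endothelial-like and 44.5 CPM in VSMC-like cells. Library 6 had only 10 endothelial-like cells, while the other libraries had between 35 and 256. Of 27654 different barcode sequences, 1612 occurred in more than 1 library. The shallower copies had a median of 598 UMIs, 2980 of them did not pass the filter, and 82 kept cells had more UMIs under the same sequence in another library. Removal of these 82 cells left each count of genes given below as it was.

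By the median over libraries, Notch1, Notch4, Dll4, Hey1 and Hes1 were highest in endothelial-like cells. Jag1 was at 80.3 CPM there and at 76.1 CPM in VSMC2-like cells, with overlapping ranges, and from UMIs pooled over libraries the order turned, at 81.0 and 86.3 CPM. Notch3, Hey2 and Heyl were highest in VSMC2-like cells, a smooth muscle subcluster described below, and Notch2 was highest in fibroblast-like cells. The plot of levels by class shows the values of every library with at least 20 cells, which leaves 5 libraries for the endothelial-like class. CPM were taken from UMIs summed over the cells of a class in a library. Each gene was compared only with itself across cell classes, because 3′ UMI counts were not scaled between genes.

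**Figure D1:**
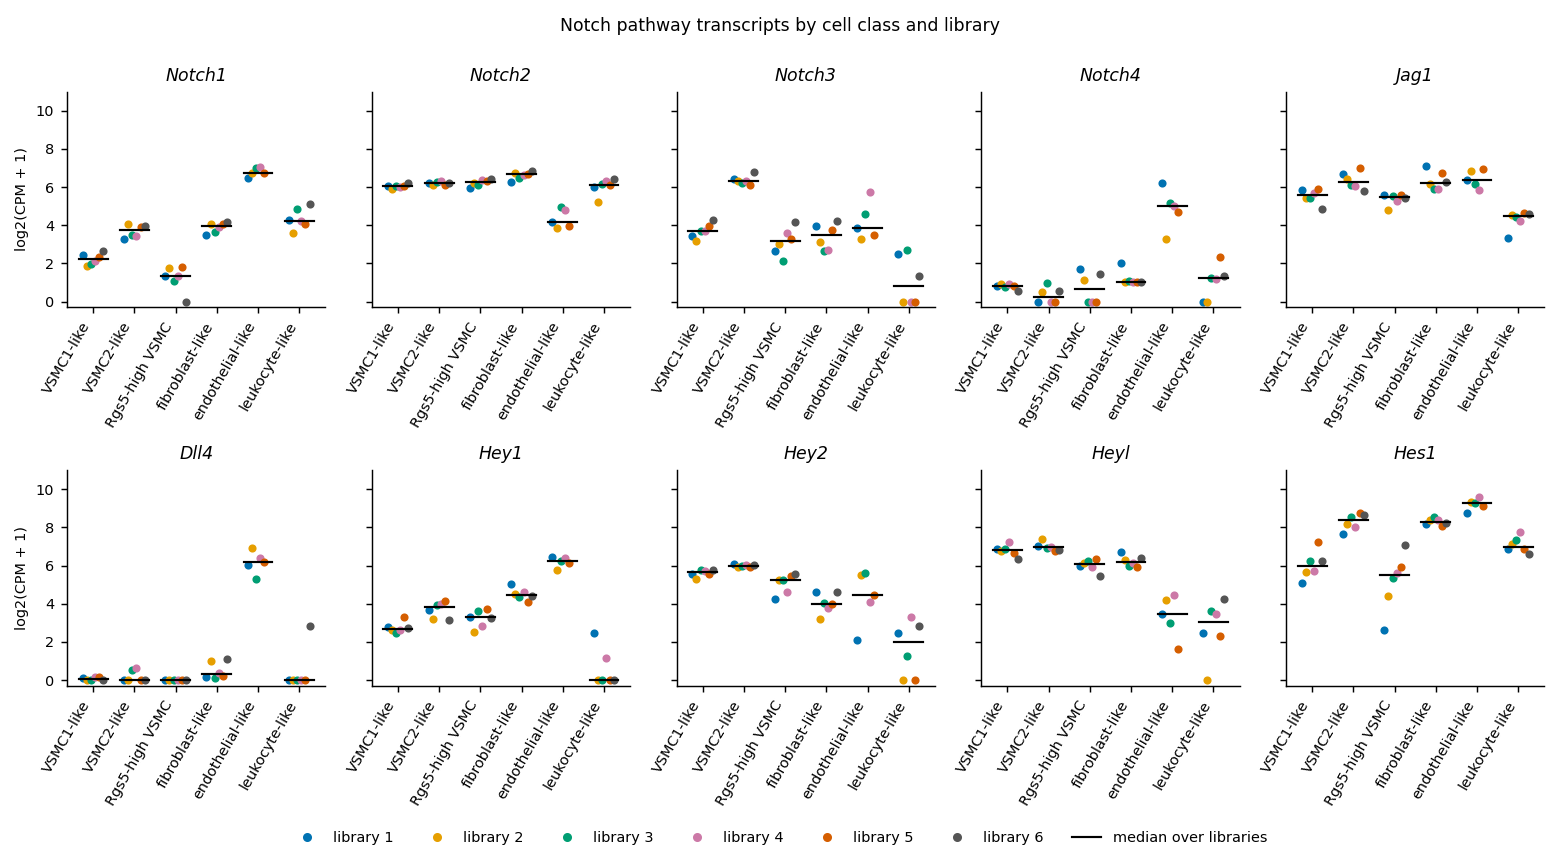
Level of each of the 10 genes, as log2(CPM + 1), in 3 subclusters of VSMC-like cells and in fibroblast-like, endothelial-like and leukocyte-like cells. Points are libraries with at least 20 cells of the group and bars are medians over libraries. Dll4 lay between 38.1 and 119 CPM in endothelial-like cells and at or below 1.18 CPM in every library of fibroblast-like and VSMC subcluster cells, while Notch3 in VSMC2-like cells lay above the other groups in each library.

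VSMC-like cells were clustered again, without the Notch genes, the naming genes and a list of transcripts induced by tissue dissociation. They formed a large subcluster of 7620 cells (VSMC1-like), a subcluster of 1985 cells (VSMC2-like) that was named for its higher Enpep against Tes and Ptprz1, a subcluster with high Rgs5 (631 cells), and a group of 17 that held cardiomyocyte transcripts. Notch3 had no part in the naming. In the study, VSMC1 and VSMC2 were set against the distal and proximal ends of this aortic segment by transcripts known to change along it. Among these were Tes and Ptprz1, which rise toward the distal end, and Enpep and Notch3, which fall. Higher Notch3 in VSMC2-like cells was therefore known beforehand. The comparison asked here is how the Notch genes divide between the subclusters. Of the 10 genes, 6 reached a mean of 10 CPM over both subclusters. Notch3, Hes1, Jag1, Hey2 and Notch2 were higher in VSMC2-like cells in all 6 libraries and Heyl in 5 of 6. None of the 6 was lower in all libraries. Over all 7694 genes at this level, 13.9% were higher and 20.8% lower in all 6 libraries. No test was run on these differences.

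Among the receptors, Notch3 differed most. In libraries 1 to 6 it was at 9.95, 8.03, 11.9, 11.9, 14.3 and 18.5 CPM in VSMC1-like cells. In VSMC2-like cells of the same libraries it was at 84.7, 78.3, 74.0, 79.5, 68.1 and 108 CPM. The ranges did not overlap, and the median log2 ratio within a library was 2.68 (2.25 to 3.27). After each cell was thinned to 3000 UMIs, 375 of 1904 VSMC2-like cells had a Notch3 UMI (19.7%, 95% exact binomial interval 17.9 to 21.6%), against 3.51% of 7183 VSMC1-like cells. The share in leukocyte-like cells, which should lack this mural receptor, was 0.787%, with a median of 5638 UMIs per cell before thinning against 7098 in VSMC2-like cells. Without thinning the shares were 33.4%, 8.35% and 1.13%. Intervals cover counting error only.

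Notch2, which is broadly expressed, was nearly level between the subclusters. Its median was 73.4 CPM in VSMC2-like and 64.7 CPM in VSMC1-like cells, and the log2 ratio ran from 0.03 to 0.34 over libraries. Notch1, which mediates Notch signaling mainly in endothelium and leukocytes, did not reach 10 CPM over both subclusters. It was nevertheless higher in VSMC2-like cells of all 6 libraries, at a median of 12.2 against 3.71 CPM, from 195 and 230 UMIs. Notch4, an endothelial receptor, had 4 UMIs in VSMC2-like and 46 in VSMC1-like cells, and both groups were close to the lower end of what the depth can show.

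The ligand Jag1 was higher in VSMC2-like cells of every library, at 104, 83.8, 68.5, 66.2, 126 and 54.9 CPM against 56.7, 42.4, 41.7, 50.0, 58.4 and 27.4 CPM in VSMC1-like cells of libraries 1 to 6. Library 6 was lowest in both subclusters and library 5 highest in both, so the ranges overlapped although each library went the same way. The median log2 ratio was 0.93 (0.40 to 1.11). Dll4, the endothelial ligand, had 3 UMIs in all VSMC2-like and 4 in all VSMC1-like cells, a ratio of 2.87 with a counting interval from 0.42 to 17.0.

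Of the targets, Hes1, a repressor that also responds to signals other than Notch, differed most. It was at 33.4, 48.9, 75.3, 50.8, 147 and 74.7 CPM in VSMC1-like cells of libraries 1 to 6. In VSMC2-like cells it was at 203, 284, 379, 264, 439 and 402 CPM. The ranges did not overlap, and the median log2 ratio was 2.40, with library 5 at 1.57 and the others between 2.33 and 2.60. Hey2 rose less, from a median of 49.1 to 63.0 CPM with a log2 ratio of 0.34 (0.23 to 0.62) and ranges that did not overlap. Hey1 was at 13.2 against 5.38 CPM, below the level filter, and was higher in all 6 libraries (log2 ratio 0.98). Heyl, a target described downstream of NOTCH3 in mural cells, was not set apart, at a median of 123 against 112 CPM with 1 library in the other direction. Without cells holding 3 or more UMIs of the fibroblast genes Dcn and Lum together its log2 ratio was -0.02, and at a resolution of 0.04 it was -0.09.

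**Figure D2:**
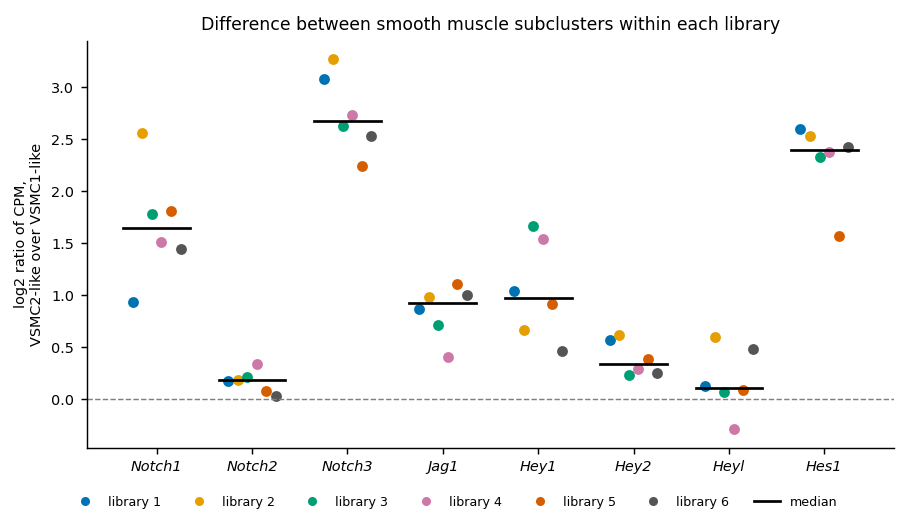
Log2 ratio of CPM in VSMC2-like over VSMC1-like cells of the same library (vertical axis) for the genes other than Notch4 and Dll4. Each point is a library, the bar is the median over 6 libraries, and the dashed line marks no difference. Notch3 (median 2.68) and Hes1 (2.40) lie highest, while Heyl (0.11) straddles the line.

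Other features moved with the subcluster. The dissociation list summed to a median of 24896 CPM (18355 to 33641) in VSMC2-like and 14981 CPM (12297 to 24120) in VSMC1-like cells, and 18 of its 20 genes were higher in all 6 libraries. When 1972 cells of each subcluster were matched within libraries on their share of these UMIs, the log2 ratio was 1.85 for Hes1, 2.49 for Notch3 and 0.73 for Jag1. The 8 fibroblast markers summed to 2793 CPM (1259 to 5874) against 931 CPM (671 to 1206), Lum and Dcn were among the 10 leading genes of VSMC2-like cells, and 9.22% of these cells were marked as doublets against 1.13%. Leaving out cells with 3 or more Dcn and Lum UMIs removed 816 VSMC2-like cells (41.1%) and 722 VSMC1-like cells (9.48%). Without these cells the ratio was larger, 3.42 for Notch3, 3.03 for Hes1 and 0.86 for Hey2. Without cells marked as doublets the ratio was 2.92 for Notch3 and 2.46 for Hes1. The 9 pericyte markers summed to 795 CPM (446 to 1056) against 370.0 CPM (279 to 439), with Vtn at 0 in VSMC1-like cells. Without cells holding a UMI of the pericyte genes Higd1b or Vtn or the endothelial genes Cdh5 or Pecam1, the ratio was 2.56 for Notch3 and 2.41 for Hes1. The 8 endothelial markers summed to 52.2 CPM (36.9 to 70.8) against 44.9 CPM (23.5 to 75.2).

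Of 53 further ligands, glycosyltransferases, proteases, nuclear partners, regulators of turnover and targets, 29 reached the level filter, 2 were higher and 5 lower in all 6 libraries, beside the 13.9% and 20.8% over all genes. These counts move with the settings, to 4 higher with all genes kept in the clustering, and to 1 lower at resolution 0.04 and 2 lower in cells matched on the dissociation list. Bhlhe40, a transcriptional repressor, and Numbl, a relative of the Notch inhibitor Numb, were higher in VSMC2-like cells in all 6 libraries, with median log2 ratios of 2.24 and 0.19. Lower in all 6 were the coactivator Maml2 (-0.53), the O-fucosyltransferase Pofut1 (-0.35), the ubiquitin ligase subunit Fbxw7 (-0.34), the O-glucosyltransferase Poglut1 (-0.18) and the convertase Furin (-0.13). The median over the 29 genes was -0.10, against -0.04 over all genes. Rbpj itself was at 46.3 CPM in VSMC2-like and 51.1 CPM in VSMC1-like cells and was lower in 5 of 6 libraries. Below the filter, and named after their values were seen, the feedback inhibitor Nrarp rose from a median of 0.39 to 9.06 CPM and Nrip2, listed among the targets, from 0.75 to 15.6 CPM, each in all 6 libraries.

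Promoters are shown for Hey2 and Notch3, since both were higher in VSMC2-like cells and only the first holds the core of the RBPJ motif. The sequences are from RefSeq (build GRCm38.p6) and run 5′ to 3′ from 250 bases before to 10 bases after the gene's RefSeq start. They were found for 7 of the 10 genes. Hey1, Heyl and Hes1 had none, so Hey2 is the only target of the 10 genes that was searched. Capitals mark TGGGAA on either strand.
Hey2: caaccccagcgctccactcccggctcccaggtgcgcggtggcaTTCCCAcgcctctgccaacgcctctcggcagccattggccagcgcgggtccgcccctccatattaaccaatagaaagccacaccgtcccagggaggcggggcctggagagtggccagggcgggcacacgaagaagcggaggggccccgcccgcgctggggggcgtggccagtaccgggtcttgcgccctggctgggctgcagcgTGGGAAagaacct
Notch3: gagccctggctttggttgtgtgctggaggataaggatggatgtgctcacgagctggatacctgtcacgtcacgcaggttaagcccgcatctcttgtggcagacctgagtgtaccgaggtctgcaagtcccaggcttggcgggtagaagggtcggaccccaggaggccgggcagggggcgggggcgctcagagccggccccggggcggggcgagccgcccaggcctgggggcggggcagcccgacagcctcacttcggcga

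The Hey2 window lies at chr10:30842774-30843033 on the minus strand and the Notch3 window at chr17:32166881-32167140, also on the minus strand. TGGGAA was read in both orientations and does not overlap itself. The Hey2 window holds 2 copies, beginning 207 and 3 bases before the start, the first in reverse orientation. The windows of Notch2, Notch3, Notch4, Jag1 and Dll4 hold none. Nor does that of Notch1, whose RefSeq start lies inside the longer GENCODE gene given below. Of 32851 promoters of the same length, 22.4% hold at least 1 copy of TGGGAA, so a match is common. Both Hey2 copies extend to GTGGGAA, which 5.58% of these promoters hold. A match to either describes only these letters.

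A finer division of the VSMC-like cells gave 10 subtypes of at least 50 cells, called here by their leading genes. Of 3 subtypes, at least 97.95% of the cells lay in VSMC2-like: one led by Olfr558, Acta1, Nrip2 and Kcna5 (561 cells), one led by Fst, Col8a1, Cd93 and Fgf7 (1173 cells) and one led by Cygb, Abca8a, Clec3b and Ly6a (164 cells). Notch3 in the Olfr558 subtype was at 264, 105, 113, 118, 99.9 and 172 CPM in libraries 1 to 6. In the Fst subtype it was at 52.9, 81.5, 103, 97.5, 59.2 and 72.8 CPM. In the largest subtype, led by Ccdc42 and Tes (2893 cells), it ran from 6.31 to 15.6 CPM, which neither of the others overlapped. The median log2 ratio to the largest subtype was 3.72 (2.96 to 4.61) in the Olfr558 and 2.83 (2.20 to 3.68) in the Fst subtype. Of the 9 pericyte markers, 4 were above the other VSMC-like cells in the Olfr558 subtype, and Higd1b was among its leading genes. All 9 summed to a median of 534 CPM (394 to 1490) there, 707 CPM in the Fst subtype and 366 CPM in the largest. A subtype led by Rgs5 and Prrx2 had the highest sum, at 4175 CPM. The part of these markers in the Notch3 levels was not tested. The Cygb subtype, of which 77.4% of cells were marked as doublets and in which the 8 fibroblast markers summed to a median of 12808 CPM, had a median of 12.9 CPM of Notch3, and some of its libraries held as few as 5 cells.

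Hes1 was spread over more subtypes than Notch3. In the Olfr558 subtype it was at 660, 535, 792, 462, 977 and 549 CPM, above each other smooth muscle subtype in every library. The Fst subtype had a median of 188 CPM (109 to 319). A subtype led by Gm17056, Pou3f1, Gdf15 and Plk2 (1544 cells), of which 8 cells lay in VSMC2-like, had 167 CPM (100.1 to 313), so it overlapped the Fst subtype in Hes1. Its Notch3 was at 18.0 CPM (11.5 to 24.1) and did not overlap. Atf3, Klf2 and Fos, genes induced by stress and dissociation, were also among its leading genes. The dissociation list summed to a median of 32882 CPM in the Gdf15 subtype, 31608 CPM in the Olfr558 subtype, 21541 CPM in the Fst subtype and 10107 CPM in the largest. Its part in the Hes1 levels of these subtypes was not tested.

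The medians of Jag1, Hey2 and Notch1 were also highest in the Olfr558 subtype, at 92.3 CPM (68.7 to 185), 89.9 CPM (71.3 to 110.4) and 16.4 CPM (15.2 to 16.8). Hey2 exceeded the largest subtype there in all 6 libraries, by a median log2 ratio of 0.84 (0.71 to 1.03). Nrip2, a leading gene of the subtype and 1 of the listed targets, was at 51.6 CPM (24.1 to 111) against 0.89 CPM (0.32 to 1.17) in the largest and 2.31 CPM (0.85 to 3.76) in the Fst subtype. Heyl did not follow, since its range in the Olfr558 subtype (114 to 149 CPM) lay within that of the largest (73.9 to 157 CPM).

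**Figure D3:**
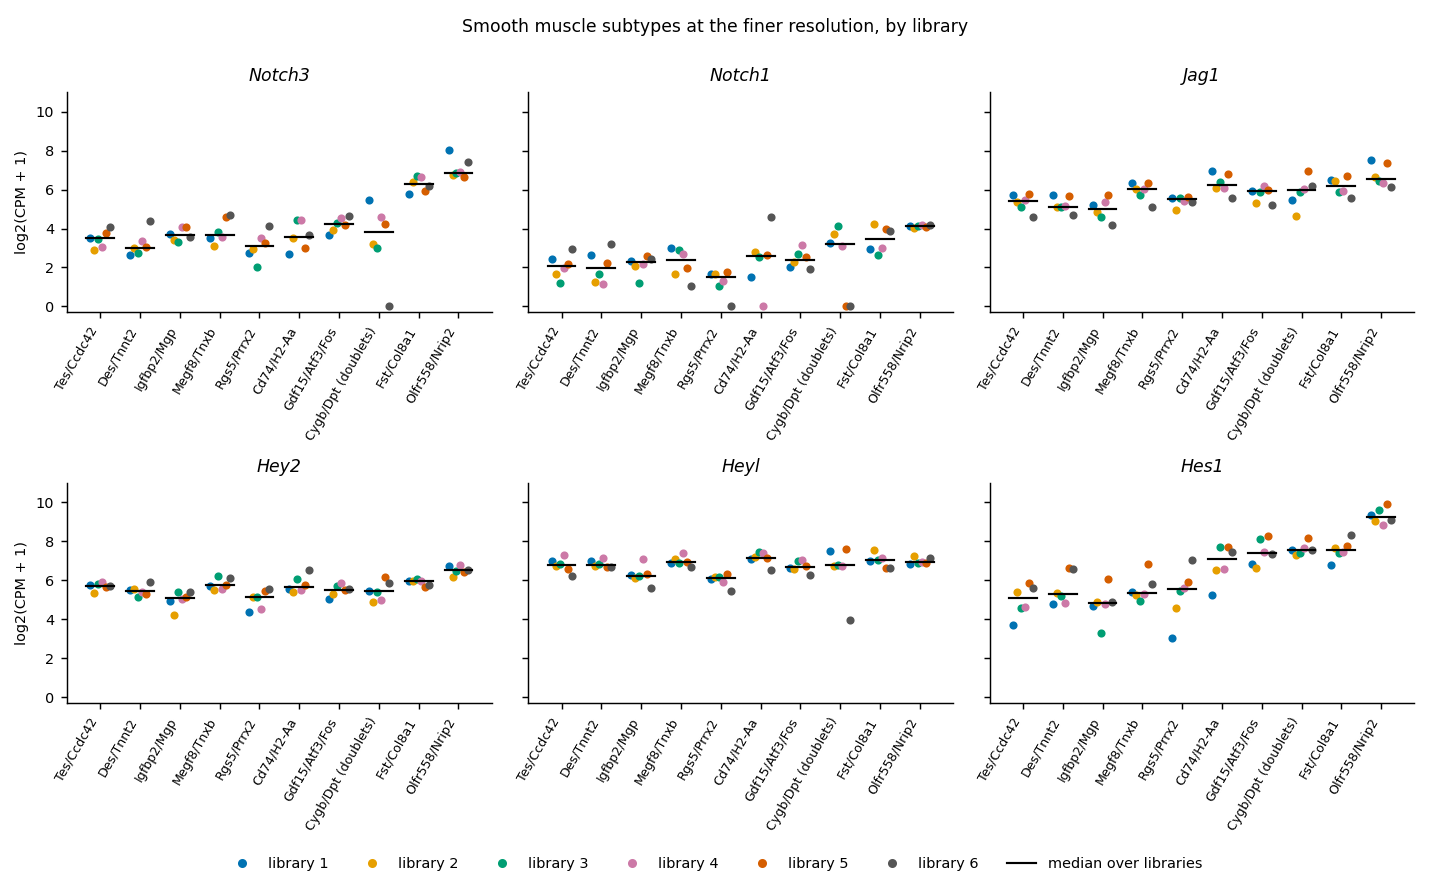
Level of 6 genes, as log2(CPM + 1), in the 10 finer subtypes of VSMC-like cells, each named on the horizontal axis by some of its leading genes. Points are the 6 libraries and bars are their medians. Notch3 is highest in the Olfr558/Nrip2 subtype (median 115 CPM) and the Fst/Col8a1 subtype (77.1 CPM), while Hes1 is also raised in the Gdf15/Atf3/Fos subtype (167 CPM).

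The subcluster with high Rgs5, a gene of pericytes and of some smooth muscle, did not share the high Notch3 of VSMC2-like cells. Among the leading genes of its 631 cells were also Prrx2, Dlx6 and Tfap2b, which code for developmental transcription factors. Notch3 was at a median of 7.85 CPM (3.36 to 17.2) and Hey2 at 36.8 CPM (17.9 to 46.4). Heyl was at 65.9 CPM (42.97 to 80.002), below and apart from VSMC1-like cells (80.7 to 152 CPM). Hey1 (8.78 CPM) and Notch2 (76.0 CPM) had higher medians there than in VSMC1-like cells (5.38 and 64.7 CPM).

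Whether receptor and targets were found in the same cells was examined at equal depth. Among VSMC2-like cells thinned to 3000 UMIs, Hes1 was found in 58.9% of the 375 cells with a Notch3 UMI (95% exact binomial interval 53.8 to 64.0%) and in 35.6% of the 1529 cells without (33.2 to 38.04%). The share was higher in cells with Notch3 in all 6 libraries. Hey2 was found in 25.3% against 13.9% (5 of 6 libraries), Jag1 in 27.7% against 20.3% (6 of 6) and Heyl in 31.5% against 26.2% (6 of 6). Notch2 was found in 18.9% against 19.5%, with 3 libraries in each direction.

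Within the finer subtypes the gaps were of different size. In the Fst subtype, Hes1 was found in 47.9% of cells with Notch3 and 27.1% of cells without, in all 6 libraries, and Hey2 in 27.8% against 12.03%, in 4 of 6. In the Olfr558 subtype the shares were 71.3% (63.9 to 78.0%) and 61.8% (56.7 to 66.8%) for Hes1, whose intervals overlap, and 23.4% and 23.9% for Hey2. The difference between subtypes was not tested. In VSMC1-like cells, 27.0% of the 252 cells with Notch3 and 15.5% of the 6931 cells without had Hes1, in the same direction in all 6 libraries. Heyl (33.3% against 28.9%) was higher in 3 of 6 libraries there and Jag1 (15.1% against 14.2%) in 2 of 6.

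**Figure D4:**
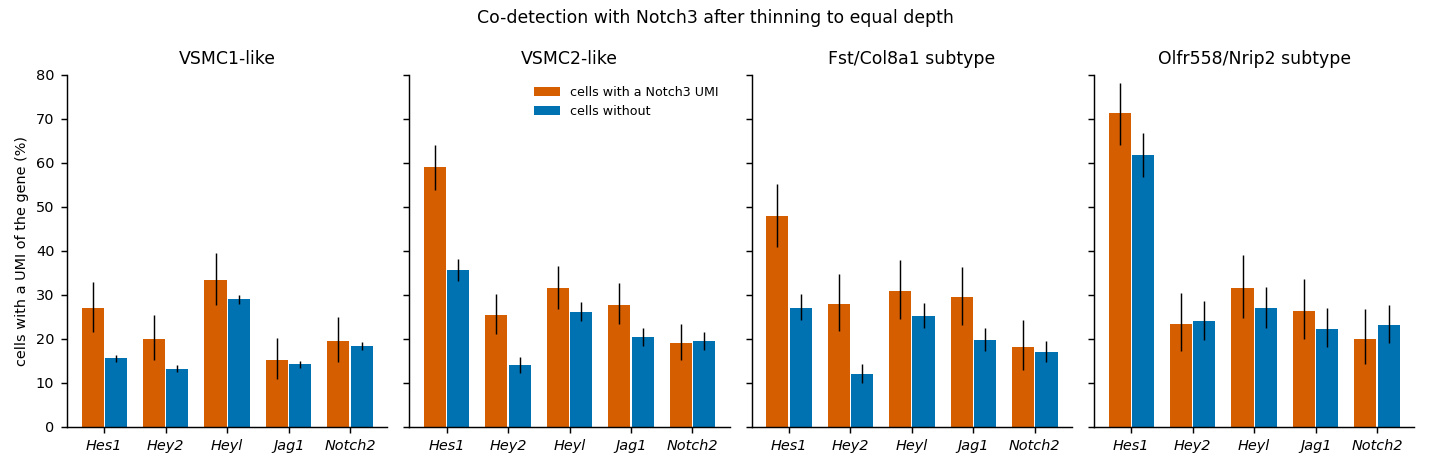
Share of cells (vertical axis, %) with a UMI of Hes1, Hey2, Heyl, Jag1 or Notch2 among cells with and without a Notch3 UMI, after each cell was thinned to 3000 UMIs. Panels are VSMC1-like cells, VSMC2-like cells and 2 finer subtypes, bars pool the libraries, and error bars are 95% exact binomial intervals. In VSMC2-like cells Hes1 is at 58.9% against 35.6%, while Notch2 is at 18.9% against 19.5%.

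Endothelial-like cells held another set of Notch genes than VSMC-like cells. All 10 genes reached the level filter in this comparison. Dll4, Notch4, Notch1, Hey1, Hes1 and Jag1 were higher and Heyl and Notch2 lower in all 6 libraries, while Notch3 and Hey2 were mixed. Dll4, Notch4, Notch1 and Hey1 were under 10 CPM in VSMC-like cells and passed only through their endothelial-like level, so that they had to differ, and their values are a description. Of 8560 genes at this level, 25.5% were higher and 18.6% lower in all 6 libraries. Library 6 enters with 10 endothelial-like cells, and no test was run.

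Among the receptors, Notch1 was at 86.9, 106, 127, 130.1, 106 and 89.4 CPM in endothelial-like cells of libraries 1 to 6, against 4.09 to 7.13 CPM in VSMC-like cells. The ranges were far apart, and the median log2 ratio was 4.20 (3.63 to 4.93). Notch4 was at 73.6, 8.84, 34.6, 31.0, 24.98 and 38.3 CPM against 0.57 to 0.82 CPM, a median log2 ratio of 5.52. Notch2 went the other way, at 16.7, 13.3, 30.0, 27.2 and 14.6 CPM in libraries 1 to 5 against 62.8 to 73.4 CPM, and it had no UMI in library 6.

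Most of the Notch3 of this class lay in few cells. Of 100 Notch3 UMIs over 568 endothelial-like cells, 71 came from a subcluster of 21 cells, of which 14 were in library 4. These cells had a median of 11582 UMIs, held 8 of the 9 pericyte markers above the other endothelial-like cells, and had Rgs5 at 9047 CPM together with the endothelial gene Cdh5 at 624 CPM. Of them, 9.52% were marked as doublets, and whether they hold transcripts of more than 1 cell was not tested. Without them the median log2 ratio of Notch3 over VSMC-like cells was -1.97, in place of -0.82.

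The ligand Dll4 was at 63.5, 119, 38.1, 83.9, 70.8 and 38.3 CPM in endothelial-like cells of the 6 libraries. VSMC-like cells held 7 Dll4 UMIs in all, and none in 2 libraries, so the ratio of the pooled levels was 804 with a counting interval from 384 to 2023. Jag1, the other ligand, was found in both classes, at a median of 97.6 against 52.1 CPM and with log2 ratios from 0.07 to 3.02. The first median and the highest ratio take in library 6, with 10 endothelial-like cells. Over the 5 libraries with at least 20 such cells the median was 80.3 CPM.

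The targets divided. Hey1 was at 86.9, 53.0, 75.1, 84.7, 68.7 and 38.3 CPM in endothelial-like cells against 5.81 to 10.3 CPM in VSMC-like cells, and the log2 ratio had a median of 3.30 (2.57 to 3.66). Hes1 was at a median of 590 against 118 CPM, a log2 ratio of 2.47 (1.11 to 3.04). Heyl was lower, at 13.9 against 114 CPM, from 44 UMIs in endothelial-like cells. Hey2 ran from 3.34 CPM in library 1 to 51.1 CPM in library 6, against 43.8 to 56.5 CPM in VSMC-like cells.

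Subclusters of the endothelial-like cells differed in these genes. The largest (290 cells) held 7 capillary markers, among them Gpihbp1 and Cd36, and is called capillary-like, although Ucp1, Cfd and Car3, genes of adipocytes, led it. A subcluster of 114 cells led by Ccl21a, Mmrn1, Reln and Lyve1 held 7 lymphatic markers and is called lymphatic-like. A subcluster of 143 cells led by Inhba, Cytl1 and Ptgs2 stays unnamed. It had 1256 CPM of the endothelial gene Pecam1. Above the other subclusters it held 4 arterial and 2 endocardial markers, and also 6 VSMC and 8 fibroblast markers. Of its cells, 66 came from library 3 and 11.2% were marked as doublets.

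Dll4 was at 110.1 CPM (95% exact Poisson interval 93.5 to 129) in capillary-like cells, 51.7 CPM (34.1 to 75.2) in lymphatic-like cells and 15.7 CPM (9.12 to 25.1) in the Inhba subcluster, from UMIs pooled over libraries. Pooled Hey1 had the same order, at 114, 42.1 and 22.1 CPM, but lymphatic-like cells of libraries 2 and 5 had no Hey1 UMI. Notch4 was at 50.1 CPM in capillary-like cells and at 3.83 CPM, from 2 UMIs, in lymphatic-like cells. Notch1 and Hes1 had their highest pooled level of these 3 subclusters in lymphatic-like cells. Notch1 was at 195 CPM (159 to 237) there and at 97.4 CPM (81.8 to 115) in capillary-like cells, and Hes1 at 1240.2 CPM (1147 to 1339) and 579 CPM (540.2 to 620.2). The intervals cover counting error only, and 76 of the 114 lymphatic-like cells came from library 4. The order of Hes1 was not the same in every library. Hes1 was at 325, 1688, 1360 and 574 CPM in lymphatic-like cells of libraries 2, 3, 4 and 5, which held 8, 17, 76 and 13 of them, against 690, 667, 599 and 568 CPM in capillary-like cells, so it was lower in library 2 and close in library 5. Notch1 was at 118, 190, 226 and 107 CPM in lymphatic-like cells of libraries 2, 3, 4 and 5. In capillary-like cells of these libraries it was at 106, 102, 97.3 and 104 CPM, so the levels were close in libraries 2 and 5. The Inhba subcluster of library 5 had 127 CPM of Notch1.

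Nearly all endothelial Hey2 lay in the Inhba subcluster, which held 80 of the 87 UMIs and stood at 73.7 CPM (58.4 to 91.7). Capillary-like cells had 3 Hey2 UMIs (2.12 CPM) and lymphatic-like cells 1. Jag1 was at 129 CPM (108 to 152) in the Inhba subcluster, 42.3 CPM (32.3 to 54.5) in capillary-like and 55.5 CPM (37.2 to 79.7) in lymphatic-like cells. By library, Jag1 in the Inhba subcluster ran from 69.9 CPM in library 3, where lymphatic-like cells had 84.4 CPM, to 319.9 CPM in library 2. The smooth muscle gene Acta2 was at 1956 CPM in the Inhba subcluster and 277 CPM in capillary-like cells, and its part in the Hey2 and Jag1 levels was not tested. Lymphatic-like cells had no Notch3 UMI, which allows up to 5.74 CPM.

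**Figure D5:**
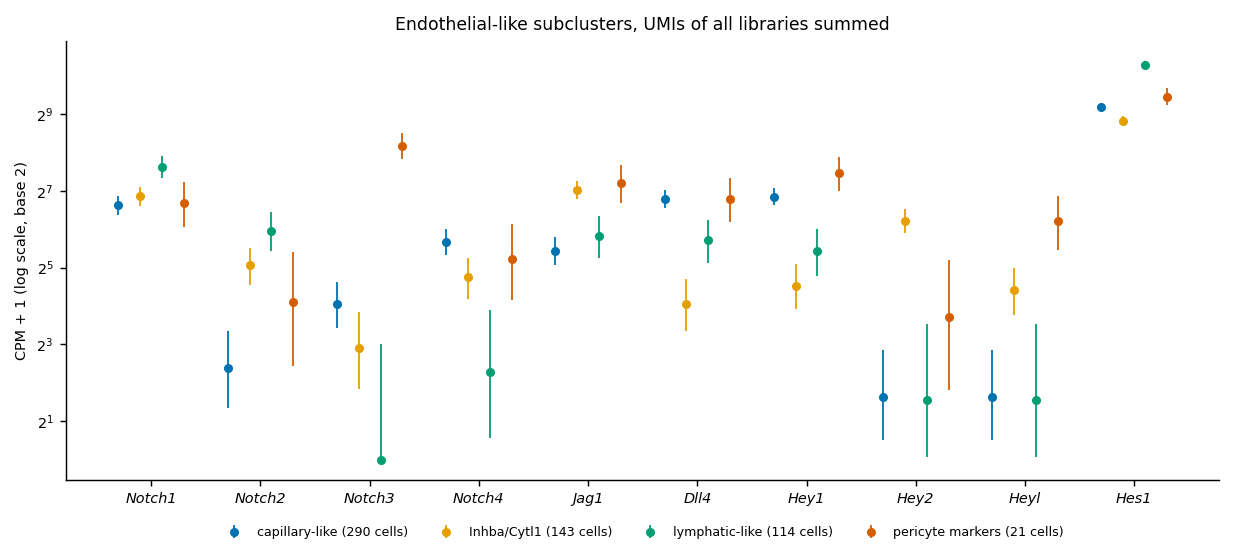
CPM + 1 (vertical axis, log scale of base 2) of the 10 genes in 4 subclusters of endothelial-like cells, from UMIs summed over all libraries, with 95% exact Poisson intervals for counting error only. In pooled level, which single libraries do not all share, capillary-like cells are highest of the 3 larger subclusters in Dll4 (110.1 CPM), Hey1 and Notch4, the Inhba/Cytl1 subcluster in Hey2 (73.7 CPM) and Jag1, and lymphatic-like cells in Notch1 (195 CPM) and Hes1. Notch3 stands at 288 CPM in the 21 cells with pericyte markers.

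Within endothelial-like cells thinned to equal depth, Hey1 was found in 28.4% of the 74 cells with a Dll4 UMI (18.5 to 40.1%) and in 12.1% of the 339 cells without (8.82 to 16.0%), and the share was higher in 4 libraries. Subclusters are pooled in these shares, and both genes were highest in capillary-like cells, so co-detection within a subcluster was not tested. Hey1 was found in 14.1% of cells with a Notch1 UMI and 15.4% of cells without, and the share was higher with Notch1 in 1 library. Hes1 was found in 51.3% of the 76 cells with a Jag1 UMI (39.6 to 63.0%) and in 65.9% of the 337 cells without (60.5 to 70.9%). These intervals overlap, and the share was higher in cells with Jag1 in 1 library.

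Of the further pathway genes, 37 reached the filter, and 12 were higher and 1 lower in endothelial-like than in VSMC-like cells in all 6 libraries. Over all genes at this level, 25.5% were higher and 18.6% lower. Egfl7, a secreted protein of endothelium, the fringe glycosyltransferase Mfng and the ligand Dll1 had the largest ratios. Their medians were 1237, 62.1 and 40.1 CPM against 0.49, 0.07 and 0.45 CPM, and they passed the filter only through endothelial-like cells. Egfl7 was among the endothelial markers summed above but, as a pathway gene, took no part in naming the classes. The smallest increases were in the gamma-secretase subunits Aph1a (median log2 ratio 0.71) and Ncstn (0.90). Dtx3, of the Deltex family, was lower (-0.81). The ligand Jag2 (4.90) and the feedback inhibitor Nrarp (5.67) were also higher, passed the filter in the same way and were named after their values were seen. The median over the 37 genes was 0.57, against 0.16 over all genes.

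In fibroblast-like cells, 7 of the 10 genes reached the filter. Hey1, Hes1, Notch2 and Jag1 were higher and Hey2, Notch3 and Heyl lower than in VSMC-like cells in all 6 libraries. By the levels pooled over libraries on which the filter acts, Hey1 passed only through fibroblast-like cells (7.68 CPM in VSMC-like cells) and Notch3 only through VSMC-like cells (8.90 CPM in fibroblast-like cells), so their values are a description. Over 8161 genes at this level, 36.6% were higher and 35% lower in all 6, so a uniform direction is common in this comparison.

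Hes1 was at 289, 338, 370, 335, 273 and 296 CPM in fibroblast-like cells of libraries 1 to 6, against 51.6 to 195 CPM in VSMC-like cells. The ranges did not overlap, and the median log2 ratio was 1.58 (0.49 to 2.49). Hey1 had a median of 21.3 against 6.78 CPM (log2 ratio 1.63), Notch2 100.1 against 66.4 CPM (0.59) and Jag1 73.1 against 52.1 CPM (0.55). Hey2 was lower, at 15.1 against 50.6 CPM (-1.74). Notch3 was at 10.2 CPM (5.18 to 17.7) against 23.9 CPM (18.6 to 39.1), a log2 ratio of -1.39, and Heyl at 73.0 against 114 CPM (-0.70). Notch1, below the filter, was higher in all 6 libraries, at 14.6 against 5.35 CPM.

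Fibroblast-like clusters differed among themselves. A cluster of 1558 cells led by Cilp2, Coch, Spp1 and Ucma had Hes1 at 586, 720, 1030, 806, 522 and 723 CPM in libraries 1 to 6. The other 4 clusters had medians from 209 to 312 CPM, and their highest library was at 391 CPM, so they did not overlap the Cilp2 cluster. That cluster also had the highest median of Notch2, at 172 CPM (123 to 286), and of Notch1, at 32.8 CPM (14.1 to 59.7). Its Jag1 had the lowest median, at 27.3 CPM (18.8 to 80.6), while a cluster led by Cytl1, Cst6 and Pthlh had 119 CPM (81.7 to 191). The dissociation list summed to 29354 CPM (21169 to 37319) in the Cilp2 cluster and to medians from 21463 to 26154 CPM in the others, and its part was not tested.

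Of the further pathway genes, 31 reached the filter, and 12 were higher and 7 lower in fibroblast-like cells in all 6 libraries. Over all genes at this level, 36.6% were higher and 35% lower. The count of higher genes lies near its share over all genes, while the count of lower genes lies below its share. Neither was tested. The largest increases were in the Deltex family gene Dtx4 (median log2 ratio 3.89), which passed the filter only through fibroblast-like cells, the repressor Bhlhe40 (3.16) and Ncstn (1.24). The largest decreases were in Hes6 (-0.90), of the Hes family, the corepressor Ncor1 (-0.55) and the convertase Furin (-0.38). The median over the 31 genes was 0.13, against 0.01 over all genes. This comparison and that of endothelial-like cells share the VSMC-like cells.

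The genes with the most similar pattern were listed over 35 points, each a class or VSMC subcluster in a library, by Pearson's r. Points of a library share its depth and points of a class its cell type, so r is a description. Closest to Notch3 were Tbx2 (0.85), Sncg (0.85) and Susd2 (0.80), and Susd2 was also closest to Hey2 (0.89). Hes1 lay closest to Ier5l (0.91), Ier2 (0.85) and Cpne8 (0.85), of which Ier2 is an immediate early gene, and Heyl to Pi15 (0.96). Jag1 lay closest to Amotl2 (0.86), Notch1 to Pim3 (0.92) and Notch2 to Colec12 (0.90). Dll4 lay closest to Car4 (0.98), Robo4 (0.97) and Rasip1 (0.96), Notch4 to Clec1a (0.92), and Hey1 to Sptbn1 (0.94), Ephb4 (0.94) and Myl12a (0.93).

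In mm10 coordinates (GENCODE M21, 1-based), Notch1 lies on chromosome 2 from 26457903 to 26516663, Notch2 on chromosome 3 from 98013527 to 98150361, Notch3 on chromosome 17 from 32120820 to 32166852 and Notch4 on chromosome 17 from 34564268 to 34588503. Jag1 lies on chromosome 2 from 137081456 to 137116644 and Dll4 on chromosome 2 from 119325784 to 119335962. Hey1 lies on chromosome 3 from 8663359 to 8667256, Hey2 on chromosome 10 from 30832359 to 30842801, Heyl on chromosome 4 from 123233556 to 123249875 and Hes1 on chromosome 16 from 30064384 to 30067796. Genes annotated on the other strand overlap Notch1, Notch3, Notch4 and Dll4, among them the antisense gene Gm17276 at Notch3, and whether counting used the strand is not given in the sources used here.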

How the data were processed

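Single-cell 3′ RNA sequencing libraries of the mouse aortic root and ascending aorta were analysed from 1 matrix of UMI counts, which the authors deposited unnormalized for 6 pooled libraries. Per the study's methods reads were aligned to mm10 with Cell Ranger 6, while the matrix header names 4.0.0. No label ties a library to a mouse, so libraries carry no group. The methods state that preparation took several days, but no source used here ties a library to a day, so values within a day were not computed.

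Cells were filtered as in the study and normalized and integrated over libraries with SCTransform and RPCA (in R 4.3.3 with sctransform 0.4.2 and Seurat 5.3.0 on SeuratObject 5.2.0, from 3000 variable features and 30 components at resolution 0.25), with the Notch genes left out. Classes were named from fixed marker lists. No resolution tried in the planned scan, which began at 0.05, gave exactly 2 VSMC subclusters of at least 5% of cells. Resolution 0.05, which gave 3, was used, and the Rgs5-high subcluster was kept apart. This departs from the planned design. Finer subtypes used resolution 0.4 and endothelial subclusters 0.3. Scrublet (scanpy 1.11.5, Python 3.11.15) marked doublets in each library, with the highest 5% of scores taken where the caller marked under 0.5%, and marked cells were kept in the values given.

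UMIs were summed by class and library into CPM. Log2 ratios used a prior of 0.5 UMI, and genes with a mean of at least 10 CPM over both groups were counted as higher or lower where all 6 libraries went 1 way. Shares of cells were also taken after thinning to 3000 UMIs. Alternatives covered clustering, doublets, filters, scaling, matching on dissociation genes and leaving out libraries. The count of directions was tested on simulated data. The members are all named, with the 3 pathway genes of highest and the 3 of lowest median log2 ratio among those that went 1 way in every library and the 3 genes most like each member. The members and lists were chosen with earlier results of these data known.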

Additional observations from a re-analysis of the deposited data

Results flagged for a closer look

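Of 23 sets of library values examined, 3 held a library far from the others by Dixon's criterion, which chance meets in about 1 in 20 sets. For Hes1, the log2 ratio between VSMC2-like and VSMC1-like cells was 1.57 in library 5 and between 2.33 and 2.60 in the others. In endothelial-like over VSMC-like cells, library 6 stood apart for Notch2, at -9.35 against -2.24 to -1.16, and for Notch3, at -8.45 against -1.45 to 0.81. Library 6 had 10 endothelial-like cells with no UMI of either gene, so these ratios rest on the prior and are no measure of size.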

How the results depend on the processing

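The counts of members that went 1 way in VSMC2-like over VSMC1-like cells (5 higher, 0 lower) were within 1.5 times of these values under every alternative run, and no log2 ratio called in all 6 libraries changed sign. Of the log2 ratios of members under all alternatives, 484 moved by less than the spread over libraries and 16 by more. Of the shares of cells with a UMI, 42 moved and 8 did not when each cell was thinned to 3000 UMIs, which leaves fewer UMIs per cell. Of the 29 pathway genes of that comparison, the number higher (2) was 4 with all genes kept in the clustering, 7 with no level filter beyond 1 UMI, 10 from 1 sum over all libraries and 0 at 50 CPM or more. The number lower (5) was 1 at resolution 0.04, 2 with cells matched on the dissociation list, 19 from 1 sum and 1 at 50 CPM or more. In endothelial-like over VSMC-like cells, the number of members lower (2) was 4 in capillary-like and lymphatic-like cells only, 4 by a mean over cells and 1 at 50 CPM or more, where 3 in place of 6 were higher. In fibroblast-like over VSMC-like cells, 7 in place of 4 were higher with no level filter, and 1 in place of 3 was lower at 50 CPM or more. The level filters change the number of genes counted, and for the other settings the cause was not tested.

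With each library left out in turn, pathway genes higher ran from 2 to 5 (5 without library 2) and lower from 5 to 8 (8 without library 6). Members higher ran from 5 to 6 in VSMC2-like over VSMC1-like cells, with 0 lower, and stayed at 6 in endothelial-like and 4 in fibroblast-like cells. Members lower ran from 2 to 3 in endothelial-like cells and stayed at 3 in fibroblast-like cells. No paired analysis was possible because no label ties a library to a sample, so replicate numbers could not serve as a block between LDS and control, while cell classes were compared within each library. The settings at resolution 0.04, without groups of cells or barcodes, and with Rgs5-high cells counted as VSMC1-like were chosen after seeing the data. Depth limits Notch4 and Dll4 outside endothelium and every gene in the 10 endothelial-like cells of library 6.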
